A study of Sus scrofa with 61 samples.

Results

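The glucocorticoid receptor, encoded by NR3C1, and NCOA2, a coactivator that binds the receptor, were followed in pig liver by every probe-set that the annotation of the array assigns to either symbol. There were 7 such probe-sets, 4 of NR3C1 and 3 of NCOA2, among 23999 probe-sets without controls, and they stand for 2 of the 6765 genes with a probe-set of their own. They were chosen by symbol alone and each is given separately, since the signals of different probe-sets cannot be set against each other as levels.

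The receptor waits in the cytoplasm in a complex with HSP90, its cochaperones and immunophilins. Once cortisol binds, it moves to the nucleus, attaches to DNA and recruits p160 coactivators (NCOA1, NCOA2 and NCOA3), which bring in histone acetyltransferases and the SWI/SNF remodelling complex. Liver makes new cortisol from cortisone through HSD11B1, and the hepatic receptor is known for inducing enzymes of gluconeogenesis and amino acid breakdown. Cortisol rises before birth in the pig, as in other mammals. NCOA2 also serves other nuclear receptors.

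The animals were LP offspring, the German Landrace progeny of gilts on a low protein diet through gestation, and all 4 groups share this exposure. Their livers were hybridised to Affymetrix Porcine Genome Arrays, 1 animal per array, from 16 fetuses taken 94 days post conception (94 dpc), 14 newborn piglets aged 1 day post natum (1 dpn), 15 juvenile pigs aged 28 dpn and 16 young adults aged 188 dpn. Offspring of dams on the adequate protein diet were not analysed here. Pairs of littermates were used according to the study, but the labels do not tie animals to litters, so the p-values treat littermates as independent. Fetuses were recovered by Caesarean section in one experiment and all older animals were born in another, and between 94 dpc and 1 dpn the experiment and the stage cannot be told apart. Pigs of 28 and 188 dpn had been fasted overnight and no fast is stated for newborns, so a difference in feeding and age cannot be told apart. Values are log2 of the deposited signal intensity, which is relative and has no absolute unit, and their precision is limited by the number of arrays.

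The arrays had been scaled to 1 mean intensity, and the median array log2 signal was 7.38 at 94 dpc, 7.23 at 1 dpn, 6.88 in juveniles and 6.67 in young adults. A gene may therefore be lower on the deposited scale and still hold its place within the array, and changes are given on other scales where this matters. Each array correlated with the rest of its stage at a mean r between 0.859 and 0.907. The 3′ minus 5′ difference of the EF1A control, a sign of RNA integrity and labelling, had stage medians of −0.02 at 94 dpc, −0.16 at 1 dpn, 0.39 in juveniles and 0.40 in young adults, and 3 arrays at 188 dpn stood apart from the rest with 1.39 to 1.68. The same difference had stage medians of 2.13, 1.75, 3.91 and 3.98 for beta-actin and 0.98, 0.34, 0.76 and 0.63 for GAPDH from 94 dpc to 188 dpn, so the controls differ between stages, for actin most between 1 and 28 dpn. Hepatocyte markers (ALB, APOA1, TTR, HNF4A and others) were measured for 9 of 9 genes, and all 9 lay above the array median on every array. Summed erythroid markers, measured for 7 of 13 genes, had a median signal of 2112 at 1 dpn and 13804 at 94 dpc. All 7 were called lower between these stages, where 41.6% of all probe-sets tested were. In whole liver, fewer cells of a type and less RNA per cell cannot be told apart.

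On the deposited scale the brightest probe-set of each gene was higher in fetal liver than at any later stage. The brightest NR3C1 probe-set, Ssc.15952.1.S1_at, had stage means of 8.43 ± 0.32 at 94 dpc (SD, n = 16), 8.05 ± 0.46 at 1 dpn (n = 14), 7.53 ± 0.37 in juveniles (n = 15) and 7.44 ± 0.55 in young adults (n = 16). The brightest NCOA2 probe-set, Ssc.4645.1.A1_at, had 11.23 ± 0.30 at 94 dpc, 9.80 ± 0.43 at 1 dpn, 10.12 ± 0.27 in juveniles and 10.23 ± 0.52 in young adults. On these probe-sets the receptor was low at 28 and 188 dpn, and the coactivator had its lowest mean in the newborn.

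**Figure D1:**
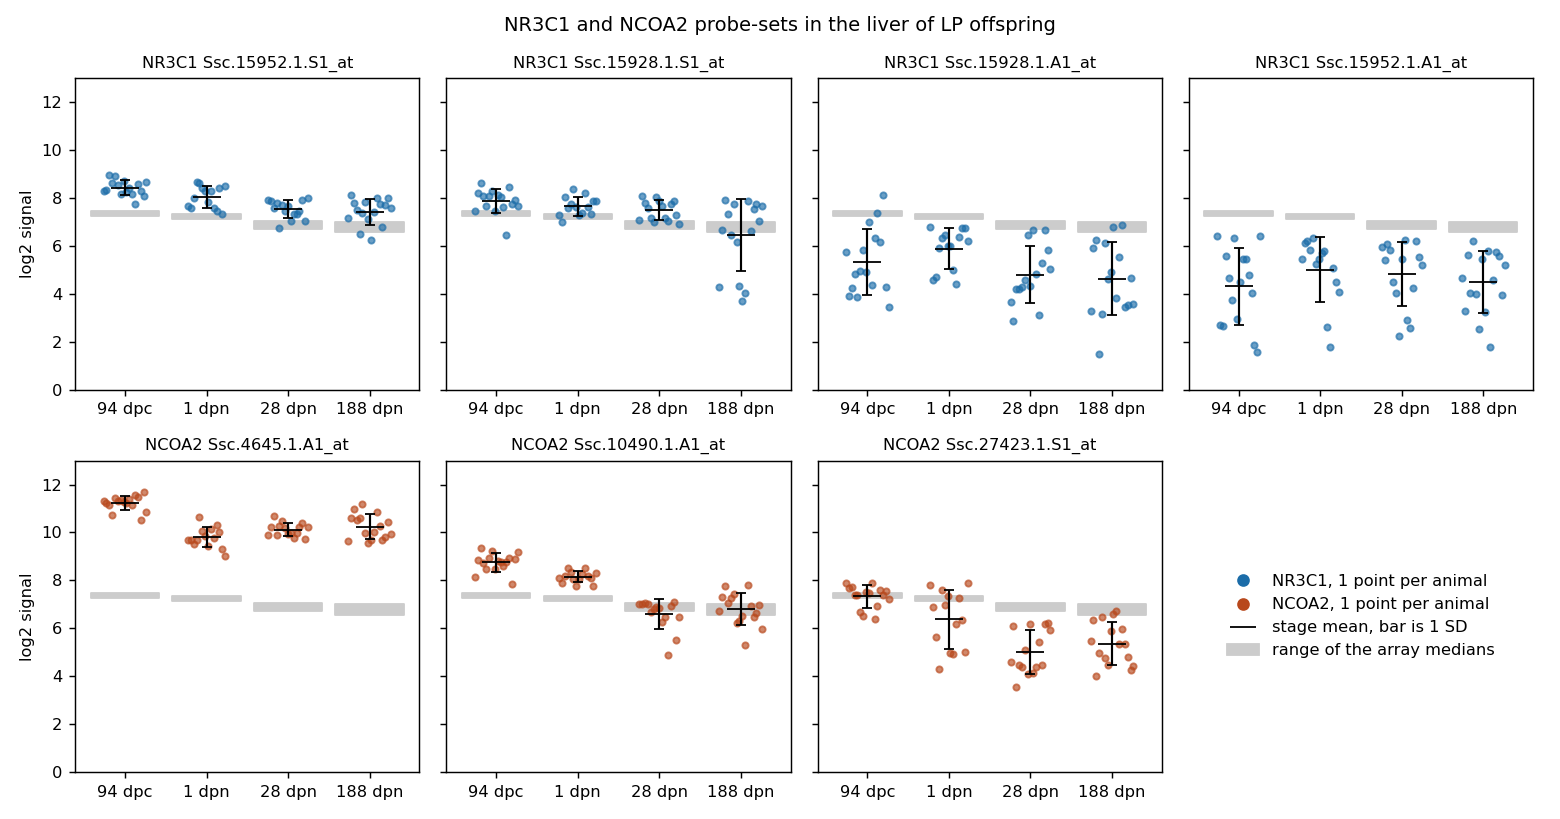
Log2 signal (vertical axis) of the 4 NR3C1 probe-sets (upper row) and the 3 NCOA2 probe-sets (lower row) at the 4 stages from 94 dpc to 188 dpn, with 1 point per animal, the stage mean and 1 SD, and the range of the array medians in grey. NR3C1 Ssc.15952.1.S1_at shifts down by steps with its stages overlapping, NCOA2 Ssc.4645.1.A1_at is set apart only at 94 dpc, and NCOA2 Ssc.10490.1.A1_at falls to the array median at 28 dpn.

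Animal by animal, NR3C1 Ssc.15952.1.S1_at ran from 7.76 over a median of 8.38 to 8.97 in fetuses, and from 7.34 over 8.15 to 8.66 in newborns. It ran from 6.74 over 7.58 to 7.99 at 28 dpn and from 6.24 over 7.54 to 8.15 at 188 dpn. Neighbouring stages overlapped throughout, but 4 of the 16 fetuses lay above every newborn and 5 of the 14 newborns below every fetus. The probe-set was above the array median on all 30 arrays at 94 dpc and 1 dpn, on 14 of 15 at 28 dpn and on 14 of 16 at 188 dpn. Measured from the array median, its mean was 1.05 at 94 dpc, 0.82 at 1 dpn, 0.64 in juveniles and 0.71 in young adults.

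The other NR3C1 probe-set near or above the array median, Ssc.15928.1.S1_at, was flatter up to 28 dpn. It ran from 6.45 over 7.97 to 8.62 at 94 dpc, from 7.00 over 7.62 to 8.40 at 1 dpn, and from 6.93 over 7.57 to 8.09 at 28 dpn. At 188 dpn it spread from 3.71 over 6.87 to 7.94, with an SD of 1.51 against 0.41 at 28 dpn. Thus 8 of 16 young adults lay below every animal at 28 dpn, while the highest young adults matched the juveniles.

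The remaining NR3C1 probe-sets were dim. Ssc.15928.1.A1_at had stage medians of 4.92, 6.12, 4.57 and 4.66 from 94 dpc to 188 dpn and exceeded the array median on 1, 0, 0 and 2 arrays. Ssc.15952.1.A1_at had stage medians of 4.59, 5.47, 5.41 and 4.63 and never exceeded it. Neither was tested in any comparison, and a direction for the receptor was not read from them.

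NCOA2 Ssc.4645.1.A1_at was above the array median on all 61 arrays. It ran from 10.52 over 11.29 to 11.69 at 94 dpc, from 9.00 over 9.74 to 10.66 at 1 dpn, from 9.75 over 10.18 to 10.67 at 28 dpn and from 9.55 over 10.14 to 11.21 at 188 dpn. Fetuses and newborns were nearly separate, with 13 of 14 newborns below every fetus and 15 of 16 fetuses above every newborn.

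A second NCOA2 probe-set, Ssc.10490.1.A1_at, stayed bright in the newborn and dropped later. It ran from 7.83 over 8.80 to 9.34 at 94 dpc and from 7.75 over 8.15 to 8.53 at 1 dpn. It ran from 4.90 over 6.84 to 7.11 at 28 dpn and from 5.29 over 6.83 to 7.81 at 188 dpn. Every juvenile was below every newborn, and only 4 of 15 arrays at 28 dpn and 9 of 16 at 188 dpn were above the array median.

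The dimmest NCOA2 probe-set, Ssc.27423.1.S1_at, ran from 6.40 over 7.43 to 7.90 at 94 dpc and from 4.32 over 6.61 to 7.89 at 1 dpn. It ran from 3.55 over 4.60 to 6.23 at 28 dpn and from 4.00 over 5.33 to 6.73 at 188 dpn. It was above the array median on 9 of 16 fetal arrays, 5 of 14 newborn arrays, 0 of 15 at 28 dpn and 1 of 16 at 188 dpn, and was therefore tested only where fetuses were compared.

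Adjacent stages were compared in 3 periods (I from 94 dpc to 1 dpn, II on to 28 dpn and III on to 188 dpn), the later minus the earlier stage, with limma across all probe-sets that passed a filter on level and spread. Calls needed both P and q of 0.05 or less, q being the false discovery rate after Storey. Developmental change was widespread: 67.7% of the 12227 probe-sets tested in period I were called, 70.4% of 12114 in period II and 54.0% of 10959 in period III. A call of a single probe-set is thus common, and the sizes and their errors carry more. Adjacent periods share the animals of the stage between them.

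In period I, 1 dpn against 94 dpc, NCOA2 fell on 3 of 3 probe-sets tested, 1 of which entered only through the fetuses, and NR3C1 on 1 of 2, where 41.6% of all probe-sets tested were called lower. NCOA2 Ssc.4645.1.A1_at changed by −1.43 on the log2 scale, 0.371-fold (SE 0.13, q = 1.96e-11). NCOA2 Ssc.10490.1.A1_at changed by −0.60, 0.661-fold (SE 0.12, q = 1.57e-05), and Ssc.27423.1.S1_at by −0.96, 0.512-fold (SE 0.31, q = 0.00154). Ssc.27423.1.S1_at passed the filter only through the fetuses (above the array median on 5 of 14 newborn and 9 of 16 fetal arrays), so its call adds no support, and with signals below the array median raised to it its change was −0.16 and untested. The decrease of the coactivator thus rests on the other 2 probe-sets, which fell by different amounts. NR3C1 Ssc.15952.1.S1_at changed by −0.38, 0.769-fold (SE 0.14, q = 0.00423), a call that was lost on other scales, at −0.22 after quantile normalization and −0.23 with array medians subtracted. NR3C1 Ssc.15928.1.S1_at changed by −0.21 (SE 0.16, q = 0.0552) and was not called.

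In period II, 28 dpn against 1 dpn, the probe-sets of NCOA2 parted. Ssc.10490.1.A1_at changed by −1.56, 0.340-fold (SE 0.17, q = 8.60e-10), with no overlap between the stages. It passed the filter only through the newborns (14 of 14 newborn and 4 of 15 juvenile arrays above the array median). Its call was thus favoured by the filter. With signals below the array median raised to that median this probe-set changed by −1.21 and stayed called. Across the same step the 3′ minus 5′ difference had medians of 3.91 at 28 dpn and 1.75 at 1 dpn for actin and 0.39 and −0.16 for EF1A, and the part of RNA integrity in this change was not tested. Ssc.4645.1.A1_at changed by 0.32, 1.25-fold (SE 0.13, q = 0.00568), where 29.0% of all probe-sets tested were called higher and 41.4% lower. Both calls held after quantile normalization (−1.29 and 0.35) and with array medians subtracted (−1.21 and 0.67). NR3C1 Ssc.15952.1.S1_at changed by −0.52, 0.695-fold (SE 0.15, q = 0.000599), and again lost the call on both other scales (−0.28 and −0.18). NR3C1 Ssc.15928.1.S1_at changed by −0.17 (SE 0.15, q = 0.0530), was not called and had the opposite sign on both other scales (0.10 and 0.18). Summed macrophage markers had a median of 67168 at 28 dpn and 19771 at 1 dpn, T and NK cell markers 2363 and 452, and granulocyte markers 1098 and 4739, and their part in these changes was not tested.

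In period III, 188 dpn against 28 dpn, NCOA2 was called on 0 of 2 probe-sets tested by limma. Ssc.4645.1.A1_at changed by 0.11 (SE 0.15, P = 0.461) and Ssc.10490.1.A1_at by 0.19 (SE 0.22, P = 0.387). With array medians subtracted the first changed by 0.27 and was called. NR3C1 was called lower on 1 of 2 probe-sets, where 35.7% of all tested were. Ssc.15928.1.S1_at changed by −1.04, 0.485-fold (SE 0.38, q = 0.00658), while Ssc.15952.1.S1_at changed by −0.09 (SE 0.16, q = 0.187), with a positive sign on both other scales (0.056 and 0.067).

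**Figure D2:**
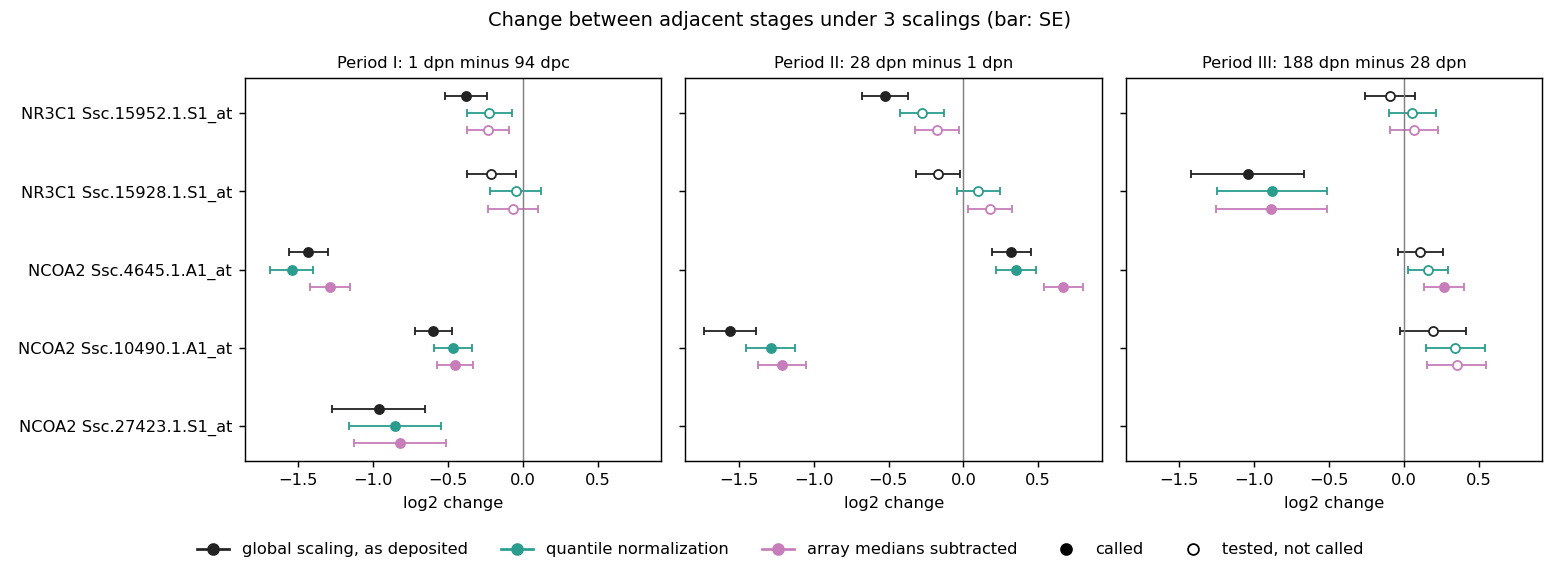
Log2 change between adjacent stages with its SE (horizontal axis) for each tested probe-set of NR3C1 and NCOA2, on the deposited scale (black), after quantile normalization (green) and with array medians subtracted (pink). Filled points were called. The NCOA2 changes of periods I and II keep their side of 0 on all 3 scales, whereas NR3C1 Ssc.15952.1.S1_at is called in periods I and II only on the deposited scale, and NR3C1 Ssc.15928.1.S1_at in period II and Ssc.15952.1.S1_at in period III change sign.

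The size of the fall of NR3C1 Ssc.15928.1.S1_at at 188 dpn depended in part on a few arrays. The 3 arrays with an EF1A difference of 1.39 to 1.68 held 3.71, 4.05 and 4.32. The other 13 arrays, with EF1A differences from 0.10 to 0.77, ran from 4.27 over 7.33 to 7.94, and only 1 of them was as low as the 3. Without these 3 arrays, an alternative chosen after seeing the data, the mean at 188 dpn was 7.01 ± 1.01 (SD, n = 13) and the change was −0.48 (SE 0.27, P = 0.0805, q = 0.0488), which was not called. With signals below the array median raised to that median it was −0.33 and stayed called. Ssc.15952.1.S1_at in turn changed by 0.023 (SE 0.16).

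On the same 3 arrays the other probe-sets were also shifted, though less. NR3C1 Ssc.15952.1.S1_at ran from 6.24 to 7.43 there and from 6.51 to 8.15 on the other 13. NCOA2 Ssc.4645.1.A1_at ran from 9.55 to 10.02 there and from 9.64 to 11.21 on the others. NCOA2 Ssc.10490.1.A1_at ran from 5.29 to 6.50 and from 5.98 to 7.81, while Ssc.27423.1.S1_at was higher, from 5.87 to 6.73 against 4.00 to 6.47. The part of RNA integrity in these values was not tested.

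On the other arrays of the older animals, in a check added after seeing the data, NR3C1 Ssc.15928.1.S1_at was lower where the EF1A difference was larger, a relation that did not pass correction. Pearson's r was −0.59 at 28 dpn (permutation p = 0.0209, adjusted over 20 relations 0.303, Spearman's rho −0.56, permutation p = 0.0306, adjusted 0.204, n = 15). It was −0.59 in the 13 arrays at 188 dpn (permutation p = 0.0437, adjusted 0.303, rho −0.66, permutation p = 0.0170, adjusted 0.170). Without the 2 arrays farthest from the median EF1A difference, r was −0.50 and −0.40. The relation was weak at 94 dpc and 1 dpn, with r of −0.08 and −0.10. NCOA2 Ssc.10490.1.A1_at had the lowest rank correlation of the 20 at 28 dpn, with rho −0.71 (permutation p = 0.00427, adjusted 0.0854) and r −0.47 (permutation p = 0.0776, adjusted 0.303, and r = −0.62 without the 2 farthest arrays), and an r of −0.56 in the 13 arrays at 188 dpn (permutation p = 0.0459, adjusted 0.303, and r = −0.39 without the 2 farthest arrays). There rho was −0.44 (permutation p = 0.136, adjusted 0.543), and none of these values passed the correction. For NR3C1 Ssc.15952.1.S1_at the r was −0.30 at 28 dpn and 0.00 in the 13 arrays at 188 dpn.

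**Figure D3:**
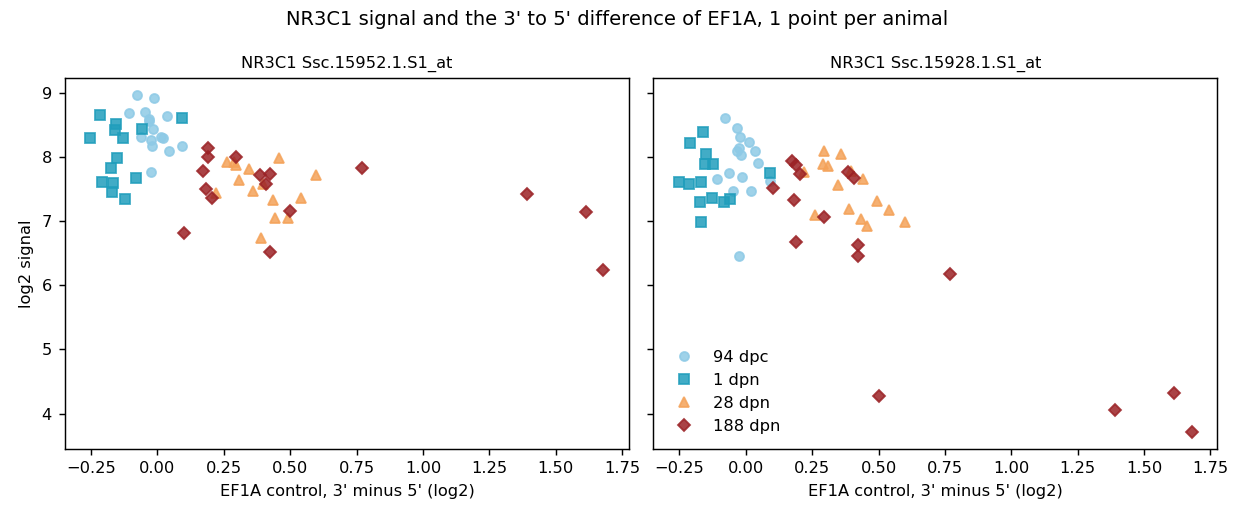
Log2 signal of NR3C1 Ssc.15952.1.S1_at (left) and Ssc.15928.1.S1_at (right) against the 3′ minus 5′ log2 difference of the EF1A control on the same array, 1 point per animal, coloured by stage. The 3 arrays at 188 dpn with a difference of 1.39 to 1.68 hold 3.71 to 4.32 of Ssc.15928.1.S1_at but 6.24 to 7.43 of Ssc.15952.1.S1_at.

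Stages that are not neighbours were compared to order the levels. At 28 dpn against 94 dpc, all 5 probe-sets tested were called lower, where 53.3% of 12288 were (29.7% were called higher and 83.0% in either direction). NCOA2 Ssc.10490.1.A1_at changed by −2.15 (SE 0.18, q = 1.57e-13) with no overlap between juveniles and fetuses. It passed the filter through the fetuses alone, with 16 of 16 fetal and 4 of 15 juvenile arrays above the array median. The filter thus favoured this call too, and with signals below that median raised to it the change was −1.81 (q = 9.69e-19). Ssc.27423.1.S1_at passed the filter through the fetuses alone and was above the array median on 0 of 15 juvenile arrays, so its call was favoured by the filter, and with signals below the array median raised to that median it changed by −0.63. NR3C1 Ssc.15952.1.S1_at changed by −0.90 (SE 0.12, q = 7.32e-09), with 15 of 16 fetuses above every juvenile, and this call held on both other scales (−0.50 and −0.41). The call of Ssc.15928.1.S1_at, −0.38 (SE 0.16), did not, and its sign turned (0.052 and 0.11).

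At 188 dpn against 94 dpc all 5 were again called lower, where 55.0% of 12921 were (28.6% higher and 83.7% in either direction). The level at 188 dpn was 0.502-fold that of fetuses for NR3C1 Ssc.15952.1.S1_at (SE of the log2 change 0.16) and 0.372-fold for Ssc.15928.1.S1_at (SE 0.38). For NCOA2 it was 0.499-fold on Ssc.4645.1.A1_at (SE 0.15) and 0.257-fold on Ssc.10490.1.A1_at (SE 0.19), with no overlap. Ssc.27423.1.S1_at again entered through the fetuses alone, with 1 of 16 young adults above the array median, and changed by −0.78 with signals below that median raised to it. The 5, Ssc.27423.1.S1_at included, stayed called without the 3 arrays of a large EF1A difference, between −2.21 and −0.87.

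At 188 dpn against 1 dpn, where 28.9% of 12814 were called higher and 47.0% lower (75.9% in all), both NR3C1 probe-sets were called lower and those of NCOA2 parted again, with Ssc.4645.1.A1_at at 0.43 (SE 0.17, q = 0.00386) and Ssc.10490.1.A1_at at −1.36 (SE 0.18, q = 1.45e-08). The NR3C1 changes were −0.62 (SE 0.18) for Ssc.15952.1.S1_at and −1.21 (SE 0.39) for Ssc.15928.1.S1_at. Neither NR3C1 call held after quantile normalization (−0.22 and −0.78) or with array medians subtracted (−0.11 and −0.71).

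By these comparisons the order for NR3C1 Ssc.15952.1.S1_at on the deposited scale was 94 dpc, 1 dpn, then 28 and 188 dpn, whose difference did not pass the test. For NCOA2 Ssc.4645.1.A1_at it was 94 dpc, then 188 and 28 dpn, not separated by the test, then 1 dpn. For NCOA2 Ssc.10490.1.A1_at it was 94 dpc, 1 dpn, then 188 and 28 dpn, also not separated.

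A difference between probe-sets of 1 gene on the same array does not depend on how far the whole array is scaled up or down. For NCOA2, Ssc.4645.1.A1_at minus Ssc.10490.1.A1_at averaged 2.48 ± 0.41 at 94 dpc, 1.65 ± 0.45 at 1 dpn, 3.53 ± 0.55 in juveniles and 3.44 ± 0.44 in young adults (SD). It changed by 1.88 in period II (SE 0.19, permutation p = 1e-05, the smallest that 100000 resamples can give, adjusted 6e-05 over 6 comparisons), and every juvenile, from 2.87 up, lay above every newborn, up to 2.30. In period I it changed by −0.83 (SE 0.16, permutation p = 3e-05, adjusted 9e-05) and in period III by −0.08 (SE 0.18, permutation p = 0.652, adjusted 0.652). The probe-sets of NCOA2 thus did not change equally at either of the first steps.

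For NR3C1, Ssc.15952.1.S1_at minus Ssc.15928.1.S1_at averaged 0.56 ± 0.45 at 94 dpc, 0.39 ± 0.57 at 1 dpn, 0.03 ± 0.52 in juveniles and 0.99 ± 1.33 in young adults (SD). Its changes were −0.17 in period I (permutation p = 0.376, adjusted 0.451), −0.35 in period II (0.0900, adjusted 0.135) and 0.95 in period III (0.0140, adjusted 0.0279). Without the 3 arrays of a large EF1A difference the last was 0.51 (SE 0.31, permutation p = 0.0994, adjusted 0.149) and no longer passed. These differences were added after seeing the data.

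**Figure D4:**
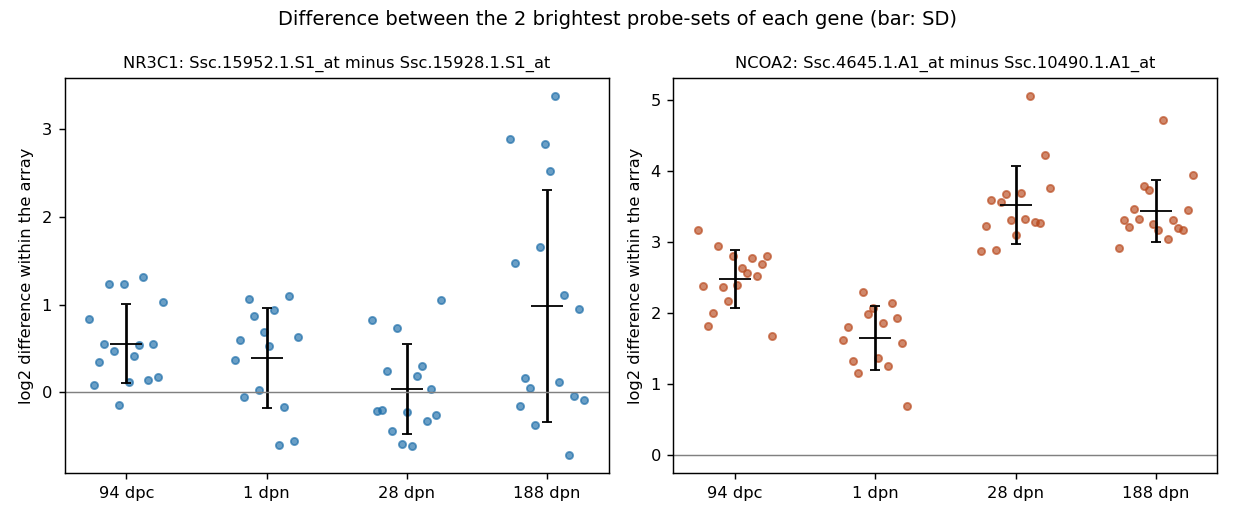
Difference in log2 signal between both main probe-sets of NR3C1 (Ssc.15952.1.S1_at minus Ssc.15928.1.S1_at) and of NCOA2 (Ssc.4645.1.A1_at minus Ssc.10490.1.A1_at) on the same array, by stage, 1 point per animal with the stage mean and 1 SD. The NCOA2 difference lies between 0.69 and 2.30 at 1 dpn and between 2.87 and 5.06 at 28 dpn, and the NR3C1 difference reaches 3.38 at 188 dpn.

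Animals of 1 stage with more NR3C1 transcript did not measurably hold more NCOA2. Between NR3C1 Ssc.15952.1.S1_at and NCOA2 Ssc.4645.1.A1_at, Pearson's r was −0.26 at 94 dpc, 0.21 at 1 dpn, 0.24 in juveniles and 0.39 in young adults (permutation p = 0.135, rho 0.44, permutation p = 0.0871, and r = 0.22 without the 3 arrays of a large EF1A difference). Among the 20 relations tested within stages, of NR3C1 with NCOA2, FKBP5, TSC22D3, TAT and PCK1, the lowest adjusted permutation p was 0.756 for r and 0.926 for rho. With 14 to 16 animals per stage only strong relations could have passed.

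Probe-sets of 1 gene were compared in the same way, as 8 relations. The NCOA2 probe-sets Ssc.4645.1.A1_at and Ssc.10490.1.A1_at varied together among the animals at 188 dpn, with r = 0.75 (permutation p = 0.00067, adjusted 0.00536) and rho = 0.78 (permutation p = 0.00061, adjusted 0.00488). Their r was 0.69 without the 2 animals farthest from the median and 0.84 without the 3 arrays of a large EF1A difference. At the younger stages it was 0.31, 0.19 and 0.47. The NR3C1 pair had r of 0.48, 0.12, 0.13 and 0.50 from 94 dpc to 188 dpn, the last with an adjusted permutation p of 0.149 and an r of 0.23 without the 3 arrays, and at 94 dpc r was −0.18 without the 2 farthest animals.

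The genes whose 4 stage means were most like those of NR3C1 Ssc.15952.1.S1_at, by the root mean square difference after centring and among 7387 probe-sets, were BRD7, a bromodomain subunit of a SWI/SNF complex (0.00655), CPEB4, a cytoplasmic polyadenylation factor (0.0125), and TSEN34, a subunit of the tRNA splicing endonuclease (0.0236). BRD7 had means of 8.74, 8.35, 7.83 and 7.73 from 94 dpc to 188 dpn. For NCOA2 Ssc.4645.1.A1_at they were EIF3H, a translation initiation factor subunit (0.0457), NNT, the mitochondrial transhydrogenase (0.0726), and VEGFA, the endothelial growth factor (0.0732). EIF3H had means of 13.37, 12.02, 12.25 and 12.33. A likeness over 4 means is a description only.

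The other genes of the pathway were counted by role, with 1 probe-set per gene. Of the coactivators besides NCOA2, 12 of 23 listed were measured, and NCOA3, CREBBP and EP300 had no named probe-set. In period I 7 of 9 tested fell and 0 rose, with a median change of −0.52 beside −0.16 over all probe-sets tested. Of all these probe-sets 41.6% were called lower and 26.1% higher. NCOA1, the nearest relative of NCOA2, changed by −0.54 (SE 0.11), NCOA4, a receptor coactivator that also delivers ferritin to the lysosome, by −1.31 (SE 0.12), TRIM24 by −1.08 (SE 0.13) and SMARCA2, an ATPase of SWI/SNF, by −0.67 (SE 0.10). NCOA2 therefore fell among other coactivators that also fell.

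In period II 41.4% of all probe-sets tested were called lower and 29.0% higher. There 6 of 10 coactivators fell and 1 rose, with a median of −0.42 beside −0.14. On the other scales 3 rose, with 7 lower after quantile normalization or 4 with array medians subtracted. After quantile normalization 4342 of all 12074 probe-sets tested rose and 4102 fell. With array medians subtracted 6013 of 12468 rose and 2878 fell. PPARGC1A, which drives gluconeogenic and mitochondrial genes, changed by −1.33 (SE 0.19), TRIM24 by −0.84 (SE 0.14) and NCOA1 by −0.34 (SE 0.11), whereas SMARCA2 changed by 1.11 (SE 0.11). In period III 35.7% of all probe-sets tested were called lower and 18.3% higher. There 5 of 10 coactivators fell and 0 rose, with a median of −0.37 beside −0.14 (5 fell and 3 rose with array medians subtracted). With array medians subtracted 3627 of all 11749 probe-sets tested rose and 2466 fell. The coactivators that fell on the deposited scale included SMARCE1, a SWI/SNF subunit, at −1.27 (SE 0.16). Others were SMARCA4, its other ATPase, at −0.66 (SE 0.09) and NCOA1 at −0.45 (SE 0.10). NCOA1 was called lower in each period, but not after quantile normalization in period III (−0.29) nor with array medians subtracted in period II (0.00), where another of its 6 probe-sets was called the opposite way. NCOA2 Ssc.4645.1.A1_at was called lower in period I alone, but NCOA2 Ssc.10490.1.A1_at in periods I and II (−0.60 and −1.56).

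Of the corepressors, which bring in histone deacetylases, 5 of 11 were measured. All 3 tested fell in period I, 3 of 4 rose and 1 fell in period II, and 2 of 3 fell in period III, where 41.6%, 41.4% and 35.7% of all probe-sets tested were called lower and 26.1%, 29.0% and 18.3% higher. In period I 2 were lower after quantile normalization and 1 with array medians subtracted. On these scales 4263 of all 12323 and 4003 of all 12385 probe-sets tested were lower. HDAC1 changed by −0.32, 0.83 and −0.92 over the 3 periods (SE 0.09, 0.10 and 0.09) and HDAC2 by −0.56, −0.95 and −0.57 (SE 0.09, 0.10 and 0.17). The HDAC1 change of period I was not called with array medians subtracted (−0.17). SIN3A, the scaffold of a deacetylase complex, changed by 0.85 in period II (SE 0.12) and by −0.29 in period I (SE 0.11), a call lost on both other scales (−0.13 and −0.15).

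The receptor's chaperones changed in both directions in period I. All 15 were measured, and of 11 tested 5 rose and 2 fell, with a median of 0.22, where 26.1% of all probe-sets tested rose and 41.6% fell. With array medians subtracted 8 of 13 rose and 2 fell, where 4137 of all 12385 probe-sets tested rose and 4003 fell. FKBP5, an immunophilin induced by the receptor that lowers its hormone binding, changed by 1.33 (SE 0.17) with every newborn above every fetus, and FKBP4, the immunophilin that favours nuclear transport, by 0.70 (SE 0.13). HSP90AB1, the constitutive HSP90, changed by −1.41 (SE 0.10) with every newborn below every fetus, and ST13, a cochaperone of HSP70, by −1.30 (SE 0.09).

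In period II 8 of 12 chaperones fell and 2 rose, with a median of −0.34, but with array medians subtracted 3 fell, 5 rose and the median was 0.07. Over all probe-sets tested in period II 6013 of 12468 rose and 2878 fell with array medians subtracted, with a median of 0.27. On the deposited scale 41.4% fell and 29.0% rose, with a median of −0.14. FKBP5 changed by −0.47 (SE 0.19), FKBP4 by −0.40 (SE 0.13), HSP90AA1, the inducible HSP90, by −0.24 (SE 0.10) and HSPA4, an HSP70 exchange factor, by −1.29 (SE 0.17). Of these only HSPA4 was also called with array medians subtracted, where HSP90AA1 had a positive sign (0.10), and FKBP5 was not called after quantile normalization (−0.29) either. In period III 8 of 10 fell and 1 rose, with a median of −0.75 (7 fell and 4 rose with array medians subtracted). Over all probe-sets tested in period III 3627 of 11749 rose and 2466 fell with array medians subtracted. On the deposited scale 35.7% fell and 18.3% rose, with a median of −0.14. HSPA8, the constitutive HSP70, changed by −1.03 (SE 0.17), HSPA4 by −1.03 (SE 0.22) and HSP90AA1 by −0.83 (SE 0.10), with another of its 5 probe-sets called the opposite way, while FKBP5 changed by −0.15 (SE 0.24) and was not called.

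**Figure D5:**
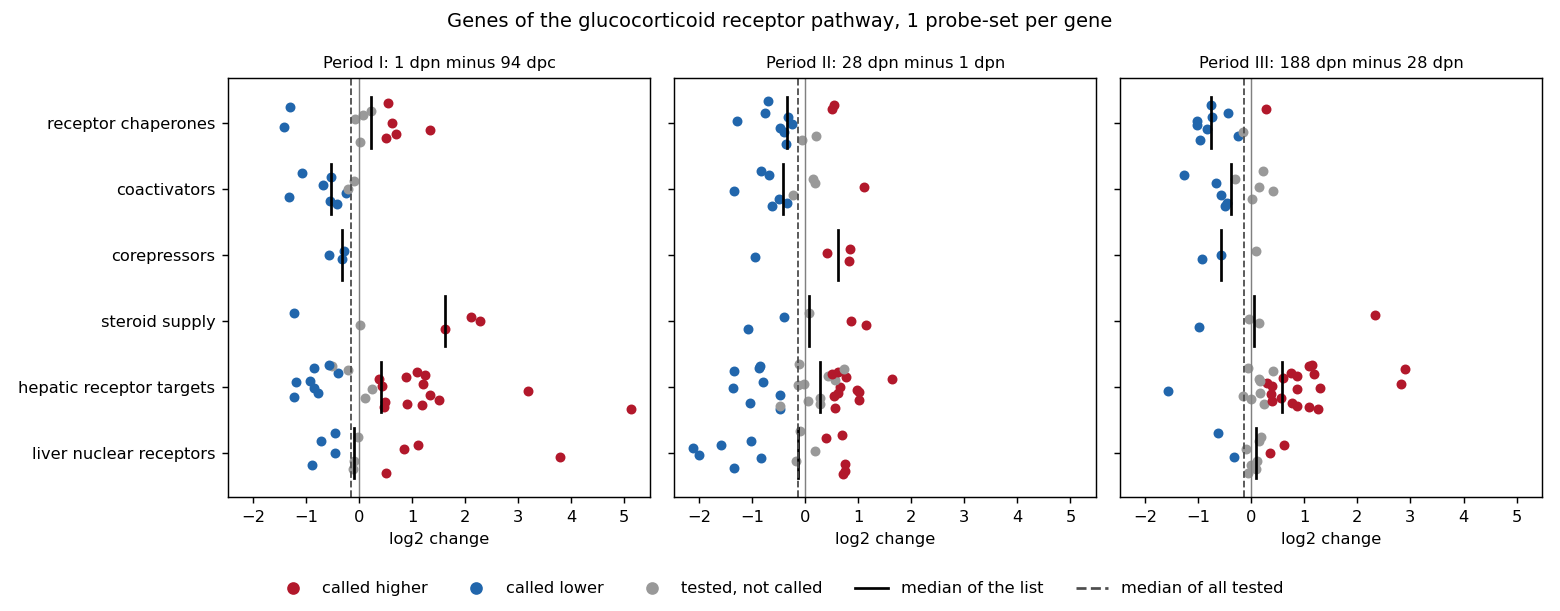
Log2 change (horizontal axis) of each tested gene of 6 lists of the receptor pathway in the 3 periods, 1 probe-set per gene, in red where called higher, blue where called lower and grey where not called, with the median of the list and, dashed, of all probe-sets tested. Coactivators lie mostly left of 0 in each period, with a median of −0.07 in period II once array medians are subtracted, and the hepatic targets lie mostly right of 0 in period III.

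Genes that set the supply of the hormone were measured for 5 of 11 listed, and in period I 3 of the 5 were called higher and 1 lower, where 26.1% and 41.6% of all probe-sets tested were. HSD11B1, which regenerates cortisol, averaged 14.12 at 1 dpn and 11.84 at 94 dpc, a change of 2.28 (SE 0.12, q = 6.37e-17) with no overlap, and it changed by a further 0.87 in period II (SE 0.11). HSD11B2, which inactivates cortisol, changed by 2.11 in period I (SE 0.41), from a fetal mean below the array median, and by 0.011 and without a call once signals below that median were raised to it. It changed by −0.41 in period II (SE 0.16), a call lost on both other scales (−0.04 and −0.06). SERPINA6, the corticosteroid-binding globulin, changed by −1.22 in period I (SE 0.22), by 0.07 in period II (SE 0.32, not called) and by 2.33 in period III (SE 0.29). ABCB1, an efflux pump that carries steroids, changed by 1.62, −1.08 and −0.98 over the 3 periods (SE 0.15, 0.12 and 0.16), and AKR1C1, a steroid reductase, by 1.16 in period II (SE 0.19). In the newborn the binding globulin was thus lower and the regenerating enzyme higher than in the fetus. The NR3C1 transcript was lower on 1 of 2 probe-sets, a call lost on both other scales.

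Genes known as hepatic targets of the receptor were more often called higher than lower, most of all in period III. In period I 14 of 26 rose and 8 fell, in period II 11 of 29 rose and 8 fell, and in period III 19 of 28 rose and 1 fell, with medians of 0.41, 0.29 and 0.58 beside −0.16, −0.14 and −0.14 over all tested. The background of probe-sets called higher was 26.1%, 29.0% and 18.3%, and of those called lower 41.6%, 41.4% and 35.7%. In period I ANGPTL4, an inhibitor of lipoprotein lipase, changed by 5.13 (SE 0.43) and GHR, the growth hormone receptor, by 3.19 (SE 0.36). Their fetal means were below the array median, and with signals raised to that median the changes were 2.15 and 0.50, both called. In the same period TSC22D3, the glucocorticoid-induced leucine zipper, changed by −0.56 (SE 0.18) and LPIN1, a phosphatidate phosphatase, by −1.19 (SE 0.17). PCK1, which commits oxaloacetate to gluconeogenesis, rose in each period, by 0.88 (SE 0.36), 0.77 (SE 0.18) and 0.60 (SE 0.14).

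In period II NFKBIA, an inhibitor of NF-kappaB, changed by 1.65 (SE 0.12), IGFBP1 by −1.36 (SE 0.32) and TAT, the tyrosine aminotransferase, by −0.84 (SE 0.27), the last not called with array medians subtracted (−0.50). In period III TAT changed by 1.09 (SE 0.17), TSC22D3 by 1.15 (SE 0.15), PER1, a clock gene that the receptor induces, by 1.18 (SE 0.12), LPIN1 by 2.82 (SE 0.18) and SDS, the serine dehydratase, by 2.89 (SE 0.53). The only target called lower was GLUL, the glutamine synthetase, at −1.57 (SE 0.18), and those not called included FKBP5 (−0.15) and SGK1 (−0.06). Over the same period NR3C1 Ssc.15952.1.S1_at changed by −0.09 and NCOA2 Ssc.4645.1.A1_at by 0.11, neither called, and NR3C1 Ssc.15928.1.S1_at by −1.04, called lower (−0.48 and not called without the 3 arrays of a large EF1A difference). Many of them also answer to fasting, insulin or the clock, and the part of these was not tested.

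Among other nuclear receptors of liver, of which NCOA2 is also a coactivator for several, 4 of 11 rose and 4 fell in period I, 5 of 14 rose and 6 fell in period II and 2 of 11 rose and 2 fell in period III. Over all probe-sets tested 26.1%, 29.0% and 18.3% rose and 41.6%, 41.4% and 35.7% fell, so the share that rose in period III was that of the background. PPARA, the fatty acid receptor, changed by 3.79 in period I (SE 0.28) where fetuses averaged 3.58 and lay under the array median. Raising such signals to that median left a change of 0.088, not called. In period II it changed by −2.01 (SE 0.25), or by −0.58 on that floor, still called. Transcription factors that act beside the receptor on DNA were counted in a list that also held YWHAZ and YWHAE, adaptor proteins that are not such factors. Of this list 4 were called higher and 3 lower of 10 tested in period I. In period II 1 of 10 was higher and 2 lower, and in period III 4 of 11 were higher and 4 lower. The lower ones of period III included YWHAZ at −0.78 (SE 0.18) and YWHAE at −0.58 (SE 0.07). With array medians subtracted 9 of the list were higher and 2 lower in period II. On that scale 6013 of all 12468 probe-sets tested were higher and 2878 lower.

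The study itself drew up a list of genes of glucocorticoid receptor signaling for period II from these animals, so it is not independent evidence of a direction. The list was reported as up-regulated in LP offspring. It came from genes not regulated alike in offspring on the adequate protein diet, with another normalization (GC-RMA) and a mixed model. NR3C1 and NCOA2 are both on it. Of its 12 genes, 9 were measured and 8 tested. In period II 3 rose and 2 fell, with a median of 0.25, but 6 rose and 0 fell with array medians subtracted. Over all probe-sets tested 29.0% rose and 41.4% fell, and with array medians subtracted 6013 of 12468 rose and 2878 fell, a shift of the whole array in the same direction. Besides NCOA2 Ssc.4645.1.A1_at, the higher ones were POLR2B, a subunit of RNA polymerase II, at 1.38 (SE 0.13), and IL10, the anti-inflammatory cytokine, at 0.37 (SE 0.16). Besides NR3C1 Ssc.15952.1.S1_at, the lower one was NFKBIB, an NF-kappaB inhibitor, at −0.56 (SE 0.20), not called with array medians subtracted (−0.22). The calls of NR3C1 and NFKBIB were thus opposite to the direction the study gave, and both were lost with array medians subtracted. The other tested NCOA2 probe-set, Ssc.10490.1.A1_at, was also called opposite to it, at −1.56 (SE 0.17). That call was favoured by the filter but held with array medians subtracted (−1.21). PRKACB, which encodes a catalytic protein kinase A subunit, changed by 0.11 (SE 0.17), SLPI, a protease inhibitor, by 0.60 (SE 0.31) and SMARCA4 by 0.19 (SE 0.10), and these were not called. MAP3K1, a kinase of stress signaling, did not pass the filter. In period III 4 of 8 were called lower and 0 higher, namely IL10 at −1.22 (SE 0.16), SLPI at −1.42 (SE 0.22), PRKACB at −0.65 (SE 0.17) and SMARCA4 at −0.66 (SE 0.09). Over all probe-sets tested in that period 35.7% were called lower and 18.3% higher.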

How the data were processed

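Liver of LP offspring was measured on 61 Affymetrix GeneChip Porcine Genome Arrays. The deposited file gives each probe-set of each array a linear signal intensity, which the authors made with GCOS 1.1.1 (named in the submitters' processing notes) and scaled globally: the mean after trimming 2% at each end lay between 500.127 and 500.229 on every array. Such scaling lowers middling signals where a few bright ones rise. Present calls, sex, mother and weight were not used here.

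Intensities were taken to log2. Of 24123 probe-sets, 124 were controls, 10069 carried 1 symbol, 198 several and 13732 none, according to the platform annotation given with the series. To be tested, a probe-set had to exceed the array median in 50% or more of the animals at either stage and have an SD above 0.25. The stages of a comparison were fitted in limma 3.58.1 (R 4.3.3), later minus earlier, stage as the only term, two-sided. Calls needed P and q of at most 0.05, where q followed Storey's method over all probe-sets tested (lambda from 0.05 to 0.95, spline with 3 degrees of freedom). The fit was tested on simulated data. Correlations and differences within arrays used two-sided permutation tests with 100000 resamples and Benjamini-Hochberg adjustment.

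Lists hold 1 probe-set per gene, the one of highest mean. The genes named from a list are the called members with the 3 largest absolute changes of a period and members fixed by role, and those most like a member by stage means. The members, lists and rules were chosen with earlier results of these data known. Alternatives covered scaling, filters, pseudocount, floor, a joint fit of all stages, array weights (statmod 1.5.0), the Benjamini-Hochberg threshold and outlying arrays. Python 3.11.15 with matplotlib 3.10.9 drew the plots.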

Additional observations from a re-analysis of the deposited data

How the results depend on the processing

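No paired analysis was possible because the replicate numbers run from 1 to 61 across the stages and no stages share a number. Over the 3 periods, 153 values of the tested probe-sets of NR3C1 and NCOA2 under the alternatives kept their direction and their side of the threshold, 13 lost the call, 1 gained it and 6 changed sign. Global scaling moves the whole: the median change of all probe-sets tested was −0.16, −0.14 and −0.14 in periods I to III, but −0.03, 0.03 and 0.00 after quantile normalization and 0.02, 0.27 and 0.07 with array medians subtracted. The share of calls that were higher was 38.5%, 41.2% and 33.9%, against 47.2%, 51.4% and 49.6% after quantile normalization and 50.8%, 67.6% and 59.5% with array medians subtracted. No depth can be given for arrays, and the dimmest NCOA2 probe-set and both dim NR3C1 probe-sets are limited by their signal.

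NR3C1 Ssc.15952.1.S1_at lost its call after quantile normalization and with array medians subtracted in period I (−0.22 and −0.23) and period II (−0.28 and −0.18). In period III, where it was not called, its sign changed with these (0.056 and 0.067), when the 9 arrays whose 3′ minus 5′ differences lay far from their stage were left out (0.036) and without the 3 arrays at 188 dpn of a large EF1A difference (0.023). NR3C1 Ssc.15928.1.S1_at, not called in period II, changed sign with both scalings (0.10 and 0.18), and likewise at 28 dpn against 94 dpc (0.052 and 0.11). In period III its call was lost without the 3 arrays (−0.48) and, being untested, with the intensity filter at the 60th percentile (−1.04). NCOA2 Ssc.4645.1.A1_at gained a call in period III with array medians subtracted (0.27). NCOA2 Ssc.27423.1.S1_at in period I was not tested with the filter at the 60th percentile (−0.96) or with the array median as floor (−0.16). The threshold of an absolute log2 change of at least 1 with Benjamini-Hochberg adjustment removed the calls of NR3C1 Ssc.15952.1.S1_at in periods I (−0.38) and II (−0.52), of NCOA2 Ssc.10490.1.A1_at (−0.60) and Ssc.27423.1.S1_at (−0.96) in period I and of NCOA2 Ssc.4645.1.A1_at in period II (0.32). It left 1993 probe-sets called in period I, 2596 in period II and 651 in period III, against 8280, 8528 and 5920. The r of NR3C1 with TSC22D3 at 94 dpc was −0.026 and became 0.046 with array medians subtracted. Other causes of these shifts were not tested.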
